A study of Homo sapiens with 8 samples.

Results

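The 42 genes described here encode regulators of pre-mRNA splicing: 10 SR proteins, 2 TRA2 proteins, 6 kinases that phosphorylate SR proteins, 13 hnRNP proteins, 2 PTB proteins and 9 RBM, LUC7-like and nuclear speckle proteins. They were chosen by name, with earlier results of these data known. By Ensembl identifier in GENCODE release 29 they were matched to 42 of the 58721 genes counted in each library. Messenger RNA of 2 established human neuroblastoma cell lines, NGP and CHLA-20, was sequenced after 6 days of treatment, with 2 libraries in each of 4 groups. The groups were NGP with the PRMT5 inhibitor JSK591, NGP with the vehicle DMSO, CHLA-20 with JSK591 and CHLA-20 with DMSO. JSK591 is the name on the samples, while the treatment description says GSK591 at the IC50, with no concentration given, and whether the names mean one compound is not stated. NGP grew in RPMI1640 with serum. CHLA-20 grew in IMEM with serum, insulin, transferrin and selenite, so the lines also differ in medium. Nothing states that replicates came from separate cultures, so p-values measure the spread between these libraries, which may be technical.

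SR proteins bind exonic enhancers through RNA recognition motifs and recruit the spliceosome through an arginine-serine domain, whereas hnRNP proteins more often bind silencers and repress splice sites. The CLK and SRPK kinases phosphorylate the arginine-serine domain and set where SR proteins sit and when they act. PRMT5, with its partner WDR77, places symmetric dimethyl marks on arginines of Sm proteins and of many splicing regulators. Many SR and hnRNP genes contain poison exons or retained introns through which their own proteins lower the productive transcript by nonsense-mediated decay. Counts per gene, as used here, do not separate these transcripts from the coding ones.

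Between 33188542 and 34914902 counts fell in genes per library, of which the members took 1.11% to 1.31% and mitochondrially encoded genes 19.0% to 21.4%. The 8 adrenergic neuroblastoma markers were all above 0, summing to 2237 to 2251 CPM (counts scaled to library size with TMM) in NGP JSK591 libraries, 2170 to 2322 CPM in NGP DMSO libraries, 3218 to 3309 CPM in CHLA-20 JSK591 libraries and 4048 to 4170 CPM in CHLA-20 DMSO libraries. The 8 blood markers summed to 0.0588 to 0.599 CPM in a library, with CD68 at 0 counts in all 8, and none could be tested. The 6 epithelial markers summed to 2.08 to 2.29 CPM in NGP JSK591 libraries, 2.83 to 3.36 CPM in NGP DMSO libraries, 5.08 to 5.38 CPM in CHLA-20 JSK591 libraries and 5.30 to 5.39 CPM in CHLA-20 DMSO libraries. The 8 fibroblast and Schwann cell markers summed to 785 to 825 CPM in NGP JSK591 libraries, 690 to 705 CPM in NGP DMSO libraries, 417 to 421 CPM in CHLA-20 JSK591 libraries and 491 to 492 CPM in CHLA-20 DMSO libraries. Such sums do not describe single markers. Between the DMSO groups, log2 differences, NGP minus CHLA-20, ran from -10.8 to 0.44 over the adrenergic markers. Over the fibroblast and Schwann cell markers they ran from -10.1 to 3.57. With JSK591 against DMSO, log2 changes of the adrenergic markers ran from -0.50 to 0.92 in NGP and from -0.55 to 0.51 in CHLA-20. Those of the fibroblast and Schwann cell markers ran from -0.72 to 0.49 in NGP and from -0.57 to 0.40 in CHLA-20. The part of these marker shifts in the members' changes was not tested. PRMT5 mRNA itself did not pass the test in NGP (log2 change -0.06 ± 0.05) or in CHLA-20 (0.08 ± 0.05). WDR77 was at 0.16 ± 0.08 in NGP, without passing, and at 0.18 ± 0.07 in CHLA-20 (adjusted p = 0.047, lost without any 1 CHLA-20 library, at 0.15 to 0.21, and under DESeq2, with no count filter and with either replicate block, at 0.18 to 0.19). CLNS1A, the pICln adaptor that brings Sm proteins to PRMT5, was lower, at -0.16 ± 0.04 in NGP and -0.13 ± 0.04 in CHLA-20, the CHLA-20 call being lost without any 1 of 7 of the 8 libraries, at -0.13 to -0.10.

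The question was how the members' mRNA levels change when PRMT5 is inhibited, and whether both lines change alike. In CHLA-20 most SR proteins and hnRNPs were higher with JSK591, in NGP more members were lower than higher, and the SR protein kinases were lower in both lines. Of 42 members, 41 had enough counts to be tested, and CLK2 had not. In NGP, 8 members were higher and 17 lower, against 16.8% and 19.4% of all 19395 genes tested (36.2% in either direction), so that 19.5% of members were higher, near the background, and 41.5% lower. In CHLA-20, 25 were higher and 9 lower, against 16.9% and 22.4% of all genes tested (39.4% in either direction). The share of members was 61.0% higher, and 22.0% lower, near the background. As the members were chosen with earlier results known, these shares are descriptive. The median log2 change was -0.06 over members and 0.00 over all genes in NGP, and 0.13 over members and -0.02 over all genes in CHLA-20. No member changed 2-fold or more under treatment. Members were counted more deeply than most genes, with a median of 7040 counts per library against 346 over all genes tested, so small changes pass the test in them. In bulk RNA, fewer cells with a transcript and less of it per cell cannot be told apart.

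**Figure D1:**
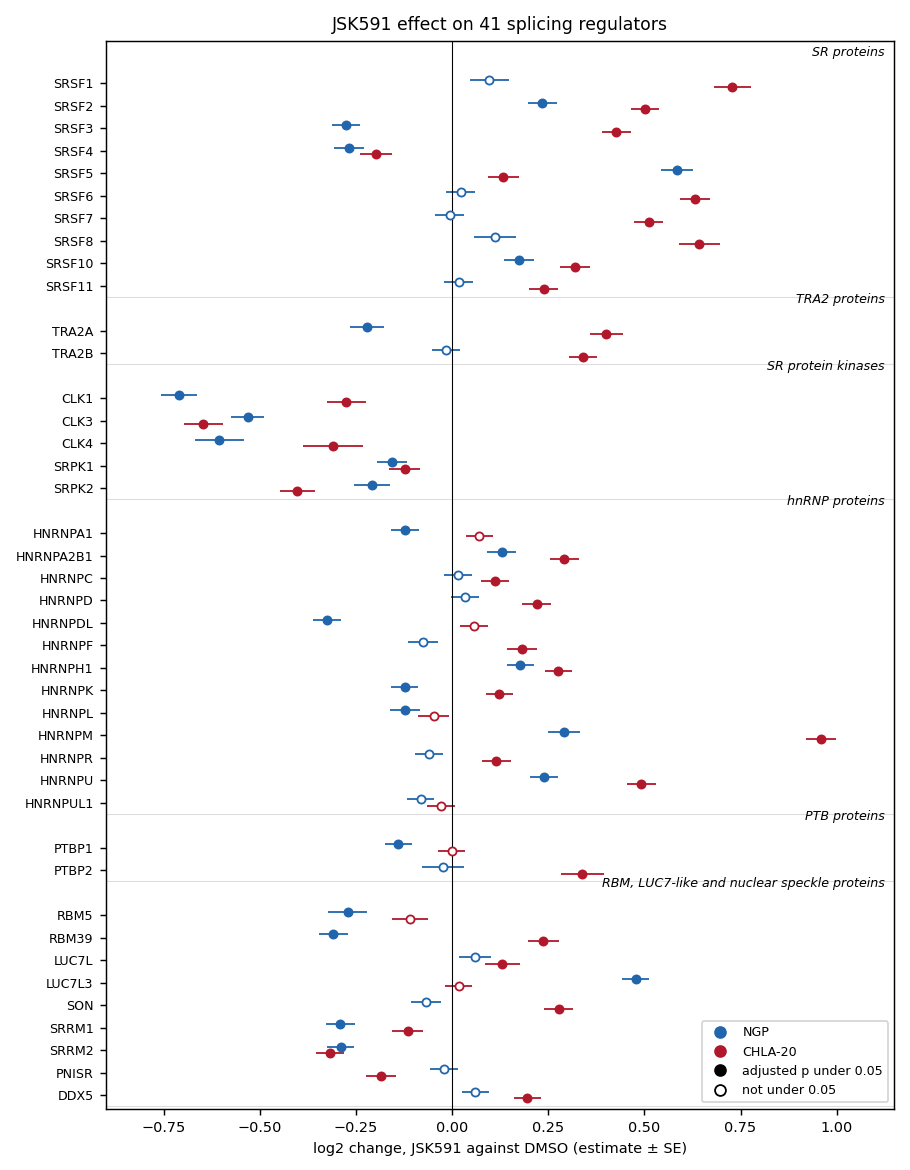
Log2 change with JSK591 against DMSO for the 41 tested members, by role, in NGP (blue) and CHLA-20 (red). Points are edgeR estimates, bars are ± SE, and filled points have an adjusted p under 0.05. The kinases lie left of 0 in both lines, while most SR proteins lie right of 0 in CHLA-20 and on both sides of 0 in NGP.

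Promoter windows from RefSeq on GRCh38.p14, 250 bases before to 50 after a transcription start, were found for 38 members, which had 60 windows. RBM39, TRA2A, HNRNPA1 and SRSF2 had none. A set of 7 motifs was searched as plain letters on both strands, and motifs were allowed to overlap. The GC box GGGCGG was in 34 of 60 member windows (56.7%) and in 45.0% of all 35116 windows. CCAAT was in 38.3% of member windows and 34.6% of all, and the palindromic E-box CACGTG in 15.0% of member windows, those of 8 genes, and 7.26% of all. CCGGAAG was in 13.3% and 10.3%, TATAAA in 13.3% and 11.5%, AAGATGGC in 1.67% and 2.89%, and TGACGTCA in 0 member windows and 1.85% of all. Median GC content was 63.8% in member windows and 58.7% in all. Shown are windows of the members that rose most in CHLA-20 (HNRNPM and SRSF1) and of the tested kinases with a single window (CLK4 and SRPK1). SRPK1 had the smallest NGP fall of the 5 tested kinases (log2 change -0.16). The sequences have GC boxes (also as CCGCCC on the other strand) and E-boxes in capitals. They lie at chr19:8444725-8445024 (plus strand) for HNRNPM, chr17:58007197-58007496 (minus strand) for SRSF1, chr5:178627001-178627300 (minus strand) for CLK4 and chr6:35921049-35921348 (minus strand) for SRPK1. HNRNPM holds 1 E-box, CLK4 holds 1 E-box and 2 GC boxes, SRPK1 holds 4 GC boxes, and SRSF1 holds none of the motifs searched. A match describes letters only.
HNRNPM: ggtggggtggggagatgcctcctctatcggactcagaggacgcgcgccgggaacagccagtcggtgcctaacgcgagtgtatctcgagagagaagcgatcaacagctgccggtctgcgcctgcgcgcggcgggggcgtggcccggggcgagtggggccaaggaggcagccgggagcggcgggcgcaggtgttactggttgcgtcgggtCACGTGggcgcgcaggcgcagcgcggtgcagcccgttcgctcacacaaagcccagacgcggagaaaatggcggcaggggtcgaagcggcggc
SRSF1: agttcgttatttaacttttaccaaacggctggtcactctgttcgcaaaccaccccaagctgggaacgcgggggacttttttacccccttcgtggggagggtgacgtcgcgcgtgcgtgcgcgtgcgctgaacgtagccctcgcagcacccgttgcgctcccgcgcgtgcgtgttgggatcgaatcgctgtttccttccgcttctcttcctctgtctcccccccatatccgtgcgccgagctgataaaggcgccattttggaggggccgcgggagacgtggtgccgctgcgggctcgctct
CLK4: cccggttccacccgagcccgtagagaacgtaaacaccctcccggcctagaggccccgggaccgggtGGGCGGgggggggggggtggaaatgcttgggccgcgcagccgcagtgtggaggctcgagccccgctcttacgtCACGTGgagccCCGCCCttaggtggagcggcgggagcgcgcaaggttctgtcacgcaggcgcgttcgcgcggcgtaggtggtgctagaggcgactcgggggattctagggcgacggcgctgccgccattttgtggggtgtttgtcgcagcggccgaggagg
SRPK1: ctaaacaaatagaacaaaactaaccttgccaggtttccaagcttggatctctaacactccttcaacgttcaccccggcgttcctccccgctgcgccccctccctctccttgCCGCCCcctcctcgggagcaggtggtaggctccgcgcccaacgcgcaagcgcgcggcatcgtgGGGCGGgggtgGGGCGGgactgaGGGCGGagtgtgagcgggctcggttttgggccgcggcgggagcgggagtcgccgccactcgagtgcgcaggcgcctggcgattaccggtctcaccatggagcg

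Most SR proteins rose in CHLA-20, whereas in NGP their changes were mixed. In NGP, 3 of 10 were higher, 2 lower and 5 did not pass, with a median log2 change of 0.06. In CHLA-20, 9 of 10 were higher and 1 was lower, with a median of 0.46. Their summed level was 1772 and 1810 CPM in NGP JSK591 libraries, against 1777 and 1759 CPM in NGP DMSO libraries, a ratio of 1.01, and 1937 and 1997 CPM in CHLA-20 JSK591 libraries, against 1506 and 1513 CPM in CHLA-20 DMSO libraries, a ratio of 1.30. SRSF1 (ENSG00000136450.12, chr17:58003360-58007346, minus strand), the prototype of the family and a splicing oncoprotein, had 56.3 and 57.0 CPM in NGP JSK591 libraries, against 54.9 and 51.0 CPM in NGP DMSO libraries. It had 92.6 and 99.6 CPM in CHLA-20 JSK591 libraries, against 56.1 and 59.9 CPM in CHLA-20 DMSO libraries. The CHLA-20 groups lay far apart and the NGP groups close together. The log2 change was 0.10 ± 0.05 (adjusted p = 0.135) in NGP and 0.73 ± 0.05 (adjusted p = 7.24e-20) in CHLA-20, and the difference of these effects was -0.63 ± 0.07 (adjusted p = 8.31e-11). Of SRSF1's exonic bases 60.7% are shared with other annotated genes. Depending on the strand setting, which is not given, reads there may have been left out of its count as ambiguous.

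SRSF6 and SRSF7, enhancer-binding members of the family, rose in CHLA-20 without passing in NGP. SRSF6 (chr20:43457928-43464247) had 153 and 155 CPM in NGP JSK591 libraries, against 153 and 150.2 CPM in NGP DMSO libraries, and it had 177 and 182 CPM in CHLA-20 JSK591 libraries, against 116 and 115 CPM in CHLA-20 DMSO libraries, with log2 changes of 0.02 ± 0.04 (adjusted p = 0.716) in NGP and 0.63 ± 0.04 (adjusted p = 6.09e-21) in CHLA-20. SRSF7 (chr2:38743599-38751494), which carries a zinc knuckle and also serves in mRNA export, had 222 and 226 CPM in NGP JSK591 libraries, against 225 and 226 CPM in NGP DMSO libraries, and it had 215 and 220.1 CPM in CHLA-20 JSK591 libraries, against 154 and 151 CPM in CHLA-20 DMSO libraries. Its log2 change was -0.01 ± 0.04 (adjusted p = 0.91) in NGP and 0.51 ± 0.04 (adjusted p = 1.18e-17) in CHLA-20. For both genes the NGP groups overlapped and the CHLA-20 groups lay well apart. SRSF8, a retroposed copy of SRSF2, had 43.4 and 42.4 CPM in NGP JSK591 libraries, against 39.3 and 40.1 CPM in NGP DMSO libraries, and it had 50.9 and 52.0 CPM in CHLA-20 JSK591 libraries, against 34.1 and 31.8 CPM in CHLA-20 DMSO libraries, with log2 changes of 0.11 ± 0.05 (adjusted p = 0.101) in NGP and 0.64 ± 0.05 (adjusted p = 1.74e-15) in CHLA-20. SRSF2, an enhancer binder mutated in myeloid neoplasms, rose in both lines. It had 215 and 216 CPM in NGP JSK591 libraries, against 184 and 183 CPM in NGP DMSO libraries, a change of 0.23 ± 0.04 (adjusted p = 7.76e-07). It had 344 and 361 CPM in CHLA-20 JSK591 libraries, against 250.4 and 248 CPM in CHLA-20 DMSO libraries, a change of 0.50 ± 0.04 (adjusted p = 6.88e-18). SRSF8 resembles SRSF2 in sequence, so the split of reads between them is uncertain. MFSD11 lies opposite 36.7% of SRSF2's exonic bases, and reads there may have been left out as ambiguous. The differences of the effects, NGP minus CHLA-20, were -0.61 ± 0.06 for SRSF6, -0.52 ± 0.05 for SRSF7, -0.53 ± 0.08 for SRSF8 and -0.27 ± 0.05 for SRSF2, all past the threshold.

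SRSF3 moved in opposite directions in the 2 lines. This smallest SR protein, which shuttles with mRNA to the cytoplasm (ENSG00000112081.16, chr6:36594353-36605600, plus strand), had 341 and 359 CPM in NGP JSK591 libraries, against 422 and 425 CPM in NGP DMSO libraries. It had 354 and 364 CPM in CHLA-20 JSK591 libraries, against 266 and 268 CPM in CHLA-20 DMSO libraries. The JSK591 groups of the lines overlapped, whereas their DMSO groups lay far apart. The log2 change was -0.28 ± 0.04 (adjusted p = 5.33e-09) in NGP and 0.43 ± 0.04 (adjusted p = 4.71e-15) in CHLA-20, and the difference, -0.70 ± 0.05 (adjusted p = 5.11e-17), was the furthest from 0 among the members. SRSF5 showed the reverse, with a larger rise in NGP: 179.7 and 188 CPM in NGP JSK591 libraries, against 124 and 121 CPM in NGP DMSO libraries (log2 change 0.58 ± 0.04, adjusted p = 1.82e-18), and it had 143 and 150.4 CPM in CHLA-20 JSK591 libraries, against 129.7 and 138 CPM in CHLA-20 DMSO libraries (0.13 ± 0.04, adjusted p = 0.0067), a difference of 0.45 ± 0.06 (adjusted p = 5.48e-09). The CHLA-20 groups of SRSF5 were separate by little, and its call there was lost without CHLA-20 DMSO replicate 1 (0.09) or without CHLA-20 JSK591 replicate 2 (0.10).

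SRSF4, a large SR protein with a long arginine-serine domain, was the SR gene that fell in both lines. It had 139 and 142 CPM in NGP JSK591 libraries, against 167 and 171 CPM in NGP DMSO libraries (log2 change -0.27 ± 0.04, adjusted p = 9.12e-08), and it had 109 and 104 CPM in CHLA-20 JSK591 libraries, against 122 and 122 CPM in CHLA-20 DMSO libraries (-0.20 ± 0.04, adjusted p = 5.95e-05). The groups did not overlap in either line, and the difference of the effects, -0.07 ± 0.06, did not pass (adjusted p = 0.401). SRSF10, a repressor when dephosphorylated, rose in both lines, with 188 and 192 CPM in NGP JSK591 libraries, against 171 and 166 CPM in NGP DMSO libraries (log2 change 0.17 ± 0.04, adjusted p = 0.00023) and 0.32 ± 0.04 in CHLA-20. Its difference, -0.14 ± 0.05 (adjusted p = 0.0412), was lost without CHLA-20 DMSO replicate 1 (-0.14), CHLA-20 JSK591 replicate 2 (-0.10) or NGP JSK591 replicate 2 (-0.16). It was also lost with the GC trend removed (-0.066), with no count filter (-0.15) and with total-count scaling (-0.13). SRSF11, which links enhancers to the splice site machinery, was at 0.02 ± 0.04 in NGP, without passing, and rose by 0.24 ± 0.04 in CHLA-20, a difference of -0.22 ± 0.05 (adjusted p = 0.000792).

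The TRA2 proteins, relatives of the SR family that activate exons such as SMN2 exon 7 (TRA2B), rose in CHLA-20. TRA2A (chr7:23504780-23532041) had 76.9 and 74.2 CPM in NGP JSK591 libraries, against 88.1 and 88.3 CPM in NGP DMSO libraries, and it had 103 and 104 CPM in CHLA-20 JSK591 libraries, against 78.8 and 78.7 CPM in CHLA-20 DMSO libraries. It was lower with JSK591 in NGP (log2 change -0.22 ± 0.04, adjusted p = 3.05e-05) and higher in CHLA-20 (0.40 ± 0.04, adjusted p = 8.22e-12), with no overlap of groups in either line. The difference was -0.62 ± 0.06 (adjusted p = 1.89e-12). TRA2B had 209 and 211 CPM with JSK591, against 215 and 210.4 CPM with DMSO, in NGP, where the groups overlapped (log2 change -0.02 ± 0.04, adjusted p = 0.781). In CHLA-20 it rose by 0.34 ± 0.04, and the difference of the effects was -0.36 ± 0.05 (adjusted p = 2e-07).

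The kinases of the SR proteins fell in both lines. All 5 tested kinases were lower with JSK591 in both lines, against 19.4% of all genes tested in NGP and 22.4% in CHLA-20. The median log2 change of the kinases was -0.53 in NGP and -0.31 in CHLA-20. Their summed level was 442 and 439.9 CPM in NGP JSK591 libraries, against 570.5 and 558 CPM in NGP DMSO libraries, a ratio of 0.782, and 306 and 313 CPM in CHLA-20 JSK591 libraries, against 379.8 and 378 CPM in CHLA-20 DMSO libraries, a ratio of 0.817. CLK1 (ENSG00000013441.15, chr2:200853009-200864744, minus strand), a nuclear dual-specificity kinase that releases SR proteins from speckles, had 59.4 and 61.1 CPM in NGP JSK591 libraries, against 102 and 95.4 CPM in NGP DMSO libraries, and it had 45.5 and 42.8 CPM in CHLA-20 JSK591 libraries, against 54.0 and 53.0 CPM in CHLA-20 DMSO libraries. The NGP groups lay further apart than the CHLA-20 groups, though neither pair overlapped. The log2 change was -0.71 ± 0.05 (adjusted p = 1.37e-19) in NGP, the furthest below 0 of the members in either line, and -0.28 ± 0.05 (adjusted p = 9.4e-06) in CHLA-20, a difference of -0.44 ± 0.07 (adjusted p = 1.03e-06).

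CLK3 (chr15:74598500-74645414), a kinase of the same family, fell in both lines, with 83.4 and 85.9 CPM in NGP JSK591 libraries, against 119 and 126 CPM in NGP DMSO libraries, and it had 36.3 and 36.5 CPM in CHLA-20 JSK591 libraries, against 55.5 and 58.6 CPM in CHLA-20 DMSO libraries. Its log2 change was -0.53 ± 0.04 (adjusted p = 1.3e-15) in NGP and -0.65 ± 0.05 (adjusted p = 1.62e-16) in CHLA-20, and the difference, 0.11 ± 0.07, did not pass (adjusted p = 0.216). CLK4 (chr5:178602664-178630615), whose promoter window holds 1 E-box and 2 GC boxes, had 26.7 and 24.5 CPM in NGP JSK591 libraries, against 38.5 and 39.6 CPM in NGP DMSO libraries, and it had 14.3 and 14.6 CPM in CHLA-20 JSK591 libraries, against 19.5 and 16.4 CPM in CHLA-20 DMSO libraries. Its log2 change was -0.61 ± 0.06 (adjusted p = 8.19e-12) in NGP and -0.31 ± 0.08 (adjusted p = 0.000806) in CHLA-20. The 2 CHLA-20 DMSO libraries differed more from each other than the other pairs, and without CHLA-20 DMSO replicate 1 the CHLA-20 change was -0.18, no longer past the threshold. The difference for CLK4, -0.30 ± 0.10 (adjusted p = 0.0214), was lost under DESeq2 (-0.32), with the GC trend removed (-0.23), with no count filter (-0.30), and without CHLA-20 DMSO replicate 2 (-0.22), CHLA-20 JSK591 replicate 1 (-0.31) or 2 (-0.29), or NGP JSK591 replicate 2 (-0.24).

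SRPK2 and SRPK1, which phosphorylate SR proteins in the cytoplasm before their import, fell as well. SRPK2 had 63.0 and 65.8 CPM in NGP JSK591 libraries, against 75.1 and 73.8 CPM in NGP DMSO libraries, and it had 71.8 and 74.2 CPM in CHLA-20 JSK591 libraries, against 93.8 and 99.2 CPM in CHLA-20 DMSO libraries, with log2 changes of -0.21 ± 0.05 (adjusted p = 0.000204) in NGP and -0.40 ± 0.04 (adjusted p = 2.89e-11) in CHLA-20. Both pairs of groups were separate. SRPK1 had 209.8 and 203 CPM in NGP JSK591 libraries, against 236 and 223 CPM in NGP DMSO libraries (-0.16 ± 0.04, adjusted p = 0.000811), and it had 138 and 145 CPM in CHLA-20 JSK591 libraries, against 157 and 151 CPM in CHLA-20 DMSO libraries (-0.12 ± 0.04, adjusted p = 0.0108). The CHLA-20 call of SRPK1 was lost without CHLA-20 DMSO replicate 1, CHLA-20 JSK591 replicate 1 or NGP JSK591 replicate 1, each at -0.09, and with no count filter (-0.12). The difference of the SRPK2 effects, 0.19 ± 0.06 (adjusted p = 0.0179), was lost without any 1 of 6 libraries, at 0.11 to 0.17, under DESeq2 (0.17) and with no count filter (0.19). CLK2 had 0 to 2 counts in a library and was not tested. Its neighbours FAM189B, SCAMP3, HCN3 and PKLR on chromosome 1 also had 0 to 5 counts, whereas THBS3 had 679 to 1075 and FDPS 1670 to 3164, and 4 of the 14 other protein-coding genes within 100000 bp had at most 3 counts in every library. The pseudogene CLK2P1 had 95 to 143 counts. Whether the count of CLK2 measures its expression was not tested.

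**Figure D2:**
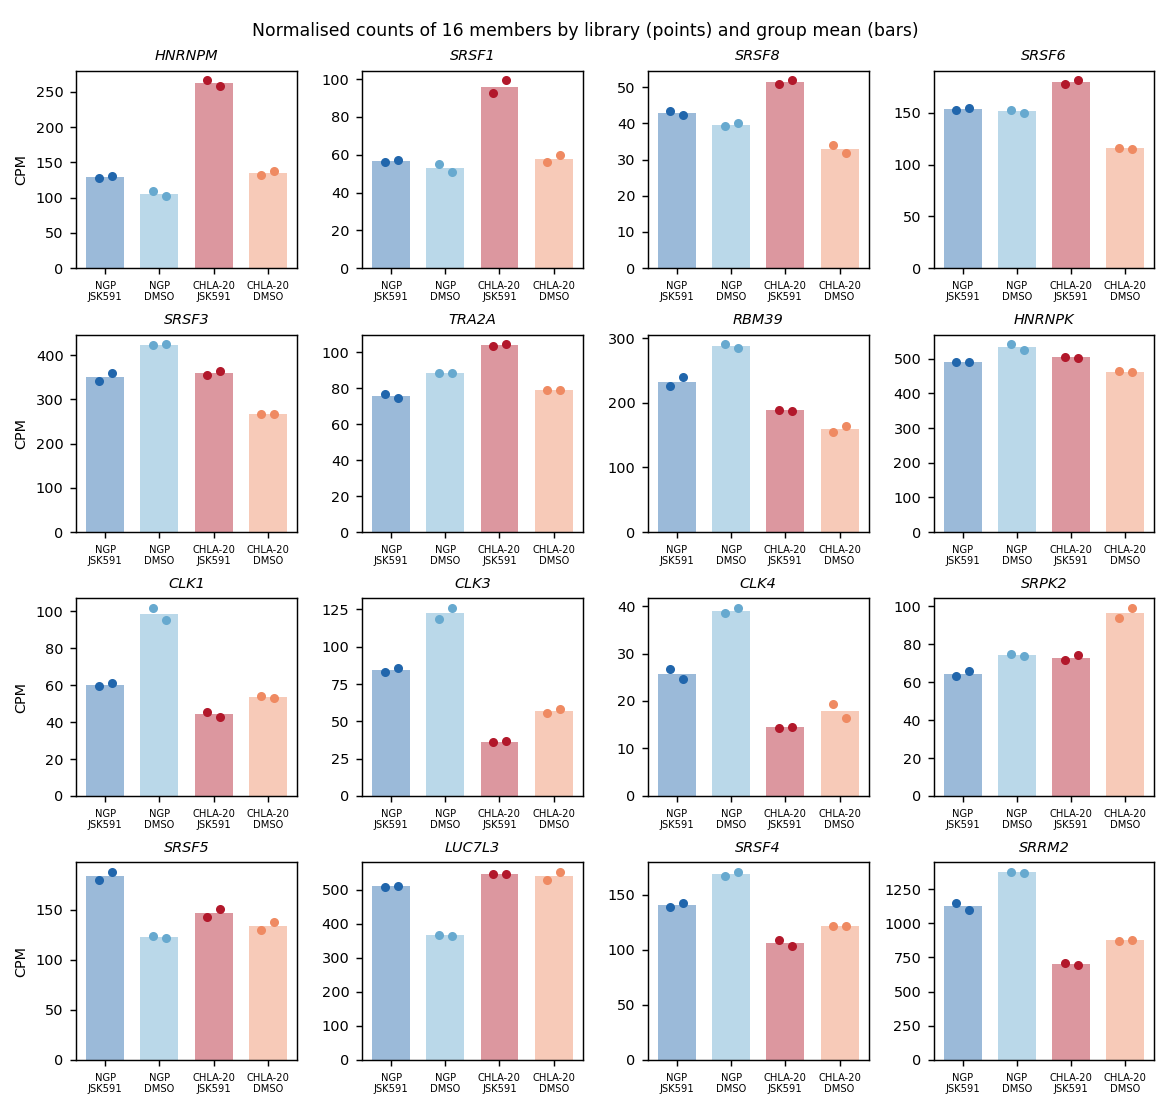
Normalised counts (CPM, y axis from 0) of 16 members in each library. Points are libraries, bars are means of 2, and the groups run NGP JSK591, NGP DMSO, CHLA-20 JSK591 and CHLA-20 DMSO; SRSF3, TRA2A, RBM39 and HNRNPK are lower with JSK591 in NGP and higher with it in CHLA-20.

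Among the hnRNP proteins, 4 of 13 were higher and 4 lower in NGP (30.8% each, against 16.8% and 19.4% of all genes tested). The other 5 did not pass, and the median log2 change over all 13 was -0.06. In CHLA-20, 9 were higher (69.2%, against 16.9%), none was lower (against 22.4%) and 4 did not pass, with a median of 0.12. Their summed level was 5764 and 5787 CPM in NGP JSK591 libraries, against 5805 and 5691 CPM in NGP DMSO libraries, a ratio of 1.00, and 6295 and 6384 CPM in CHLA-20 JSK591 libraries, against 5354 and 5556 CPM in CHLA-20 DMSO libraries, a ratio of 1.16. HNRNPM (ENSG00000099783.11, chr19:8444767-8489114, plus strand), a GU-rich sequence binder known for promoting mesenchymal splice forms, had the largest rise. It had 128 and 130.1 CPM in NGP JSK591 libraries, against 109 and 102 CPM in NGP DMSO libraries, and it had 267 and 259 CPM in CHLA-20 JSK591 libraries, against 132 and 138 CPM in CHLA-20 DMSO libraries. The libraries with JSK591 lay above those with DMSO in both lines, 1.22-fold in NGP and 1.94-fold in CHLA-20. The log2 change was 0.29 ± 0.04 (adjusted p = 4.47e-08) in NGP and 0.96 ± 0.04 (adjusted p = 2.8e-29) in CHLA-20, a difference of -0.67 ± 0.06 (adjusted p = 1.74e-14).

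HNRNPU, a nuclear matrix protein that also acts on U2 snRNP, rose in both lines. It had 652 and 661 CPM in NGP JSK591 libraries, against 566 and 546 CPM in NGP DMSO libraries (log2 change 0.24 ± 0.04, adjusted p = 3.5e-07), and it had 778 and 785 CPM in CHLA-20 JSK591 libraries, against 532 and 579.7 CPM in CHLA-20 DMSO libraries (0.49 ± 0.04, adjusted p = 2.42e-17), a difference of -0.25 ± 0.05 (adjusted p = 0.000125). COX20 lies opposite 15.6% of its exonic bases. HNRNPA2B1, a relative of HNRNPA1, and HNRNPH1 rose as well. HNRNPA2B1 had 792 and 813 CPM in NGP JSK591 libraries, against 753 and 715 CPM in NGP DMSO libraries (log2 change 0.13 ± 0.04, adjusted p = 0.00478, lost without NGP DMSO replicate 2, at 0.08), and rose by 0.29 ± 0.04 in CHLA-20. HNRNPH1, which reads G-tracts, had 579 and 572 CPM in NGP JSK591 libraries, against 515 and 502 CPM in NGP DMSO libraries (0.18 ± 0.04, adjusted p = 3.99e-05) and rose by 0.28 ± 0.04 in CHLA-20. No pair of groups overlapped in these 3 genes. The difference for HNRNPA2B1, -0.16 ± 0.05 (adjusted p = 0.0167), was lost without CHLA-20 DMSO replicate 1 (-0.11) or CHLA-20 JSK591 replicate 2 (-0.13), with the GC trend removed (-0.088) and with no count filter (-0.17). That for HNRNPH1, -0.10 ± 0.05, did not pass.

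HNRNPK, which binds C-rich tracts, moved in opposite directions. It had 492 and 489 CPM in NGP JSK591 libraries, against 543 and 527 CPM in NGP DMSO libraries (log2 change -0.12 ± 0.04, adjusted p = 0.00374), and it had 506 and 502 CPM in CHLA-20 JSK591 libraries, against 464 and 462 CPM in CHLA-20 DMSO libraries (0.12 ± 0.04, adjusted p = 0.00382). The shifts were small beside the level but larger than the gap between replicates, and the difference was -0.25 ± 0.05 (adjusted p = 8.81e-05). HNRNPDL fell in NGP, with 352 and 364 CPM in NGP JSK591 libraries, against 454 and 443 CPM in NGP DMSO libraries (log2 change -0.33 ± 0.04, adjusted p = 8.33e-11), and was at 0.06 ± 0.04 in CHLA-20 without passing, a difference of -0.38 ± 0.05 (adjusted p = 2.75e-08). HNRNPA1, an exon silencer binder, was at -0.12 ± 0.04 in NGP, where it passed except without NGP JSK591 replicate 2 (-0.10), and at 0.07 ± 0.04 in CHLA-20, where it did not. The difference for HNRNPA1 was -0.19 ± 0.05 (adjusted p = 0.00209). It has 74 pseudogenes named after it, so reads with several alignments may be missing from its count.

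A further 4 hnRNP genes passed as higher in CHLA-20 and did not pass in NGP. HNRNPD, which binds AU-rich elements, was at 0.03 ± 0.04 in NGP and 0.22 ± 0.04 in CHLA-20, a difference of -0.19 ± 0.05 (adjusted p = 0.00477). HNRNPF, a relative of HNRNPH1, was at -0.08 ± 0.04 in NGP and 0.18 ± 0.04 in CHLA-20, a difference of -0.26 ± 0.05 (adjusted p = 0.000151). HNRNPR was at -0.06 ± 0.04 in NGP and 0.11 ± 0.04 in CHLA-20, the call there being lost without CHLA-20 DMSO replicate 1 (0.09) or CHLA-20 JSK591 replicate 1 (0.11), and with the GC trend removed (0.064). Its difference, -0.18 ± 0.05 (adjusted p = 0.00756), was lost without CHLA-20 DMSO replicate 1 (-0.15) and with the GC trend removed (-0.10). HNRNPC, which binds uridine tracts, was at 0.02 ± 0.04 in NGP and 0.11 ± 0.04 in CHLA-20, lost without CHLA-20 DMSO replicate 1 or CHLA-20 JSK591 replicate 2 (0.09 in each case), and its difference, -0.10 ± 0.05 (adjusted p = 0.16), did not pass. HNRNPL, a CA-repeat binder, was lower in NGP (-0.12 ± 0.04, lost without NGP DMSO replicate 2 at -0.12, without NGP JSK591 replicate 2 at -0.07 and with total-count scaling at -0.097) and did not pass in CHLA-20 (-0.05 ± 0.04). HNRNPUL1 passed in neither line, at -0.08 ± 0.04 in NGP and -0.03 ± 0.04 in CHLA-20. In NGP it was called lower with size-factor scaling (-0.099), under DESeq2 (-0.099) and with the GC trend removed (-0.14). With that trend removed the difference of its effects passed as well (-0.16).

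PTBP1, the polypyrimidine tract binder that represses neuronal exons, and its neuronal paralogue PTBP2 behaved differently in the 2 lines. PTBP1 was lower in NGP, with 778 and 802 CPM with JSK591, against 857 and 883 CPM with DMSO (log2 change -0.14 ± 0.04, adjusted p = 0.00104). In CHLA-20 its libraries overlapped, at 787 and 769.9 CPM with JSK591, against 777 and 781 CPM with DMSO (0.00 ± 0.04). The difference, -0.14 ± 0.05 (adjusted p = 0.0297), was lost without CHLA-20 DMSO replicate 1 (-0.14) or CHLA-20 JSK591 replicate 1 (-0.13). PTBP2 was at -0.03 ± 0.05 in NGP, without passing, and rose by 0.34 ± 0.06 in CHLA-20 (adjusted p = 1.4e-06), a difference of -0.36 ± 0.08 (adjusted p = 0.000227).

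The RBM, LUC7-like and nuclear speckle genes were divided. In NGP 1 of 9 was higher and 4 lower (11.1% and 44.4%, against 16.8% and 19.4% of all genes tested). In CHLA-20 4 were higher and 3 lower (44.4% and 33.3%, against 16.9% and 22.4%). RBM39 (ENSG00000131051.22, chr20:35701347-35742312, minus strand), a U2AF-related factor and the target of aryl sulfonamide degraders, had 225 and 239 CPM in NGP JSK591 libraries, against 291 and 285 CPM in NGP DMSO libraries, and it had 189 and 188 CPM in CHLA-20 JSK591 libraries, against 155 and 165 CPM in CHLA-20 DMSO libraries. It was lower in NGP (-0.31 ± 0.04, adjusted p = 1.05e-09) and higher in CHLA-20 (0.24 ± 0.04, adjusted p = 1.33e-06), with separate groups in both lines and a difference of -0.55 ± 0.06 (adjusted p = 4.72e-12). LUC7L3, which works with U1 snRNP at the 5′ splice site, rose in NGP, where it had 509 and 511 CPM in NGP JSK591 libraries, against 368 and 365 CPM in NGP DMSO libraries (log2 change 0.48 ± 0.04, adjusted p = 5.02e-17). In CHLA-20 its groups overlapped, at 547 and 547 CPM in CHLA-20 JSK591 libraries, against 529 and 553 CPM in CHLA-20 DMSO libraries (0.02 ± 0.04, adjusted p = 0.765). The difference, 0.46 ± 0.05 (adjusted p = 7.11e-11), was the largest positive one. LUC7L, its relative, was at 0.06 ± 0.04 in NGP and 0.13 ± 0.05 in CHLA-20, the call there being lost without CHLA-20 DMSO replicate 1 (0.09) or either CHLA-20 JSK591 library (0.13). Its difference, -0.07 ± 0.06 (adjusted p = 0.436), did not pass.

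SRRM2, which with SON forms the scaffold of nuclear speckles, fell in both lines. It had 1148 and 1100 CPM in NGP JSK591 libraries, against 1377 and 1371 CPM in NGP DMSO libraries (log2 change -0.29 ± 0.04, adjusted p = 6.73e-10), and it had 712 and 692 CPM in CHLA-20 JSK591 libraries, against 872 and 879 CPM in CHLA-20 DMSO libraries (-0.32 ± 0.04, adjusted p = 3.53e-11), and the groups were separate in both. SON did the opposite in CHLA-20, where it rose by 0.28 ± 0.04, and was at -0.07 ± 0.04 in NGP without passing, a difference of -0.35 ± 0.05 (adjusted p = 6.82e-07). SRRM1, a coactivator that bridges SR proteins and snRNPs, had 248 and 238 CPM in NGP JSK591 libraries, against 307 and 287 CPM in NGP DMSO libraries (-0.29 ± 0.04, adjusted p = 4.29e-09), and it had 140.0 and 139 CPM in CHLA-20 JSK591 libraries, against 153 and 149 CPM in CHLA-20 DMSO libraries (-0.12 ± 0.04, adjusted p = 0.017). Its CHLA-20 call was lost without any 1 of 7 of the 8 libraries, at -0.12 to -0.09, and with no count filter (-0.11), and its difference, -0.18 ± 0.06 (adjusted p = 0.012), without NGP JSK591 replicate 2 (-0.15). PNISR, a serine-arginine-rich speckle protein, was at -0.02 ± 0.04 in NGP, without passing, and lower in CHLA-20, with 148 and 148 CPM in CHLA-20 JSK591 libraries, against 164 and 173 CPM in CHLA-20 DMSO libraries (log2 change -0.18 ± 0.04, adjusted p = 9.23e-05). The difference for PNISR, 0.16 ± 0.05 (adjusted p = 0.0178), was lost without any 1 of 7 libraries, at 0.08 to 0.16, under DESeq2 (0.14) and with no count filter (0.16). RBM5, which acts on FAS and caspase exons, was lower in NGP (-0.27 ± 0.05, adjusted p = 1.58e-05) and at -0.11 ± 0.05 in CHLA-20 without passing, and shares 21.2% of its exonic bases with other genes. DDX5, a DEAD-box helicase, was at 0.06 ± 0.04 in NGP and rose by 0.20 ± 0.04 in CHLA-20. Its difference, -0.14 ± 0.05 (adjusted p = 0.0365), was lost without CHLA-20 DMSO replicate 1 (-0.13), CHLA-20 JSK591 replicate 1 (-0.15) or 2 (-0.13), with the GC trend removed (-0.11) and with no count filter (-0.14).

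**Figure D3:**
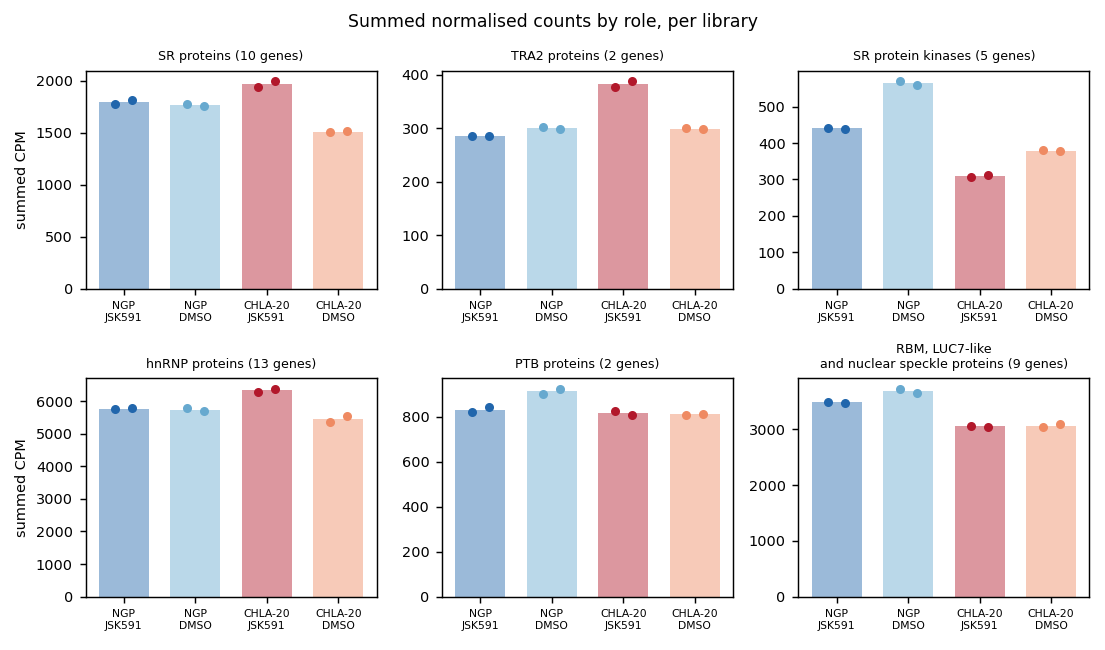
Summed CPM of the tested members of each role in each library (points) and their mean (bars), y axis from 0. The SR protein sum is 1967 CPM with JSK591 and 1510 CPM with DMSO in CHLA-20, while the kinase sum is lower with JSK591 in both lines.

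The next question was whether the response differed between the lines. The difference of the effects, NGP minus CHLA-20, passed in 31 of 41 members, 4 with a positive and 27 with a negative sign, against 15.2% and 12.5% of all genes tested (27.7% with either sign). In members 9.8% were positive and 65.9% negative, with a median of -0.19, while the median over all genes was 0.03. The NGP effect lay below the CHLA-20 effect in 35 members and above it in 6. Across the 41 members the log2 changes in NGP and CHLA-20 had a Pearson correlation of 0.59 and a Spearman correlation of 0.63, a description over genes, which are not independent replicates. By role, the sign was negative in 8 of 10 SR proteins, both TRA2 proteins, 9 of 13 hnRNPs, both PTB proteins, 4 of 9 RBM, LUC7-like and speckle genes, and 2 of 5 kinases. SRSF5, LUC7L3, SRPK2 and PNISR had the positive sign. SRSF4, CLK3, SRPK1, HNRNPC, HNRNPH1, HNRNPL, HNRNPUL1, RBM5, LUC7L and SRRM2 did not pass.

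Members called in both lines fell into 3 sets. SRSF2, SRSF5, SRSF10, HNRNPA2B1, HNRNPH1, HNRNPM and HNRNPU, 7 of 41, were higher in both, against 5.72% of all genes tested. SRSF4, CLK1, CLK3, CLK4, SRPK1, SRPK2, SRRM1 and SRRM2, 8 of 41, were lower in both, against 8.98% of all genes. SRSF3, TRA2A, HNRNPK and RBM39, 4 of 41, were lower in NGP and higher in CHLA-20, against 1.92% of all genes, and no member showed the reverse, which 2.38% of all genes did. A further 14 members were called in CHLA-20 and not in NGP as higher, and PNISR as lower. LUC7L3 was called in NGP and not in CHLA-20 as higher, and HNRNPA1, HNRNPDL, HNRNPL, PTBP1 and RBM5 as lower. Of these, HNRNPC, LUC7L, HNRNPL and RBM5 did not pass the test of the difference between the lines. For the sets called in CHLA-20 alone or in NGP alone, no share of all genes was computed, but limits follow. Of all genes tested, 16.9% were higher in CHLA-20, with 5.72% (higher in both lines) and 1.92% (lower in NGP) among them. The 14 of 41 members higher in CHLA-20 alone were a larger share than that 16.9%. In NGP 19.4% of all genes were lower, with 8.98% (lower in both lines) and 1.92% (higher in CHLA-20) among them. The members lower in NGP alone were a smaller share than that 19.4%, so this limit does not place them. These counts are descriptive.

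**Figure D4:**
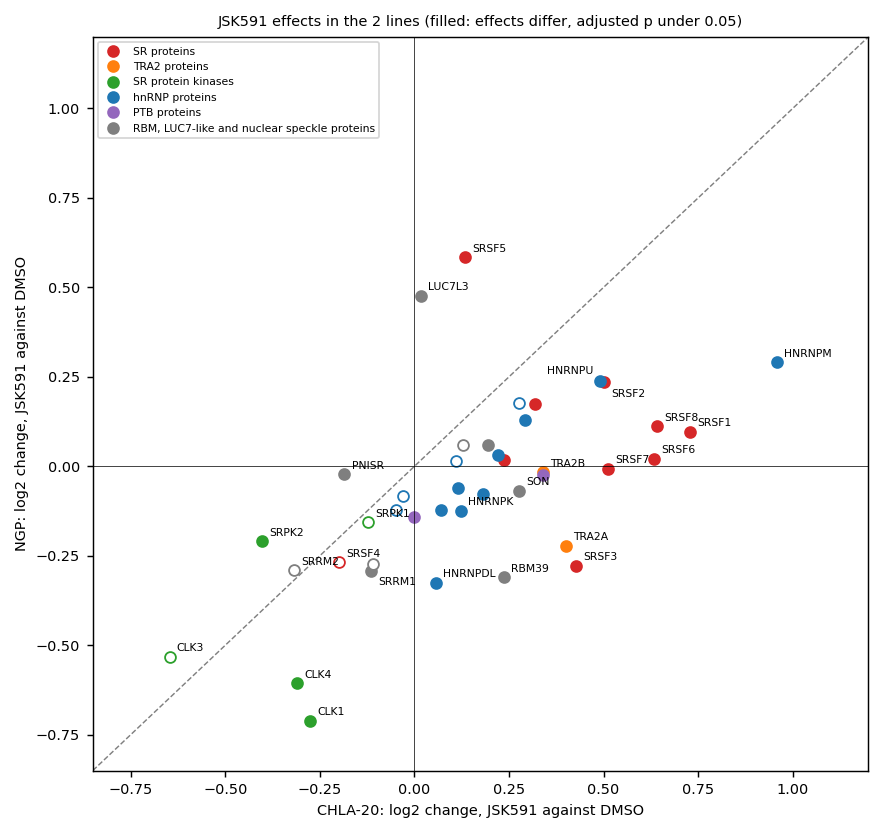
Log2 change with JSK591 in NGP (y axis) against that in CHLA-20 (x axis) for 41 members, coloured by role, with filled points where the effects differ at an adjusted p under 0.05. The dashed line marks equal effects; 35 members lie below it, and SRSF5 and LUC7L3 lie furthest above it.

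The lines also differed before treatment. In DMSO, 25 members were higher in NGP than in CHLA-20 and 13 lower, against 36.6% and 38.9% of all genes tested (75.5% in either direction), and the median log2 difference was 0.24 over members and -0.02 over all genes. In members 61.0% were higher and 31.7% lower, the second below the background. The kinases CLK4 and CLK3 differed most. CLK4 had 38.5 and 39.6 CPM in NGP DMSO libraries, against 19.5 and 16.4 CPM in CHLA-20 DMSO libraries, 2.18 times as much (1.12 ± 0.07, adjusted p = 3.31e-23). CLK3 had 119 and 126 CPM in NGP DMSO libraries, against 55.5 and 58.6 CPM in CHLA-20 DMSO libraries (1.10 ± 0.05, adjusted p = 2.98e-31). SRRM1 followed at 0.97 ± 0.04 and CLK1 at 0.88 ± 0.05. Summed, the 5 kinases had 564 CPM in NGP DMSO and 379 CPM in CHLA-20 DMSO, a ratio of 1.49, and the 10 SR proteins had a ratio of 1.17.

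SRPK2 was the kinase that was lower in NGP (-0.37 ± 0.04, adjusted p = 3.71e-11). RBM5 had 49.9 and 48.2 CPM in NGP DMSO libraries, against 77.0 and 73.9 CPM in CHLA-20 DMSO libraries (-0.62 ± 0.05, adjusted p = 3.41e-18). LUC7L3, with 368 and 365 CPM in NGP DMSO libraries, against 529 and 553 CPM in CHLA-20 DMSO libraries, was lower as well (-0.56 ± 0.04, adjusted p = 6.91e-22). SRSF2 had 184 and 183 CPM in NGP DMSO libraries, against 250.4 and 248 CPM in CHLA-20 DMSO libraries (-0.44 ± 0.04, adjusted p = 1.69e-16). None of these pairs of groups overlapped. TRA2B, SRSF10 and HNRNPU did not pass, at -0.05 ± 0.04, -0.05 ± 0.04 and 0.00 ± 0.04. SRSF1 (-0.13 ± 0.05) lost its call without CHLA-20 DMSO replicate 2 (-0.07), NGP DMSO replicate 2 (-0.04) or NGP JSK591 replicate 1 (-0.09). It was also lost with size-factor scaling (-0.11), under DESeq2 (-0.11), with total-count scaling (-0.095) and with no count filter (-0.13). SRSF5 (-0.13 ± 0.04) lost its call without 4 of the 8 libraries 1 at a time (-0.09 to -0.07). The call of HNRNPH1 (-0.14 ± 0.04) was lost without NGP DMSO replicate 2 (-0.09). With the GC trend removed, SRSF11 (0.18 ± 0.04) and TRA2A (0.16 ± 0.04) lost theirs, at 0.063 and 0.061.

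Levels were compared between genes only as CPM per kilobase of merged exons, with no test. In NGP DMSO, PTBP1 was highest at 126 ± 2.64 CPM per kb (SD, n = 2), followed by HNRNPK at 105 ± 2.25, SRRM2 at 104 ± 0.34 and HNRNPA1 at 98.0 ± 1.83. HNRNPK and SRRM2 were within their spread of each other. In CHLA-20 DMSO, DDX5 led at 115 ± 1.19 CPM per kb, followed by PTBP1 at 113 ± 0.47, HNRNPA1 at 109 ± 1.27 and HNRNPA2B1 at 98.9 ± 5.83. DDX5 and PTBP1 were likewise within their spread. The lowest were PTBP2 at 3.43 ± 0.24, RBM5 at 4.73 ± 0.12 and CLK4 at 4.93 ± 0.10 CPM per kb in NGP DMSO, and CLK4 at 2.26 ± 0.28, PTBP2 at 2.51 ± 0.10 and CLK3 at 2.79 ± 0.11 CPM per kb in CHLA-20 DMSO. CLK4 and PTBP2 in CHLA-20 were within their spread. Merged exons include retained introns. With the exons of basic transcripts alone, DDX5 came first in both lines, at 257 CPM per kb in NGP DMSO and 306 CPM per kb in CHLA-20 DMSO, and CLK3 moved up to 44.5 CPM per kb in NGP DMSO and 20.8 CPM per kb in CHLA-20 DMSO.

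**Figure D5:**
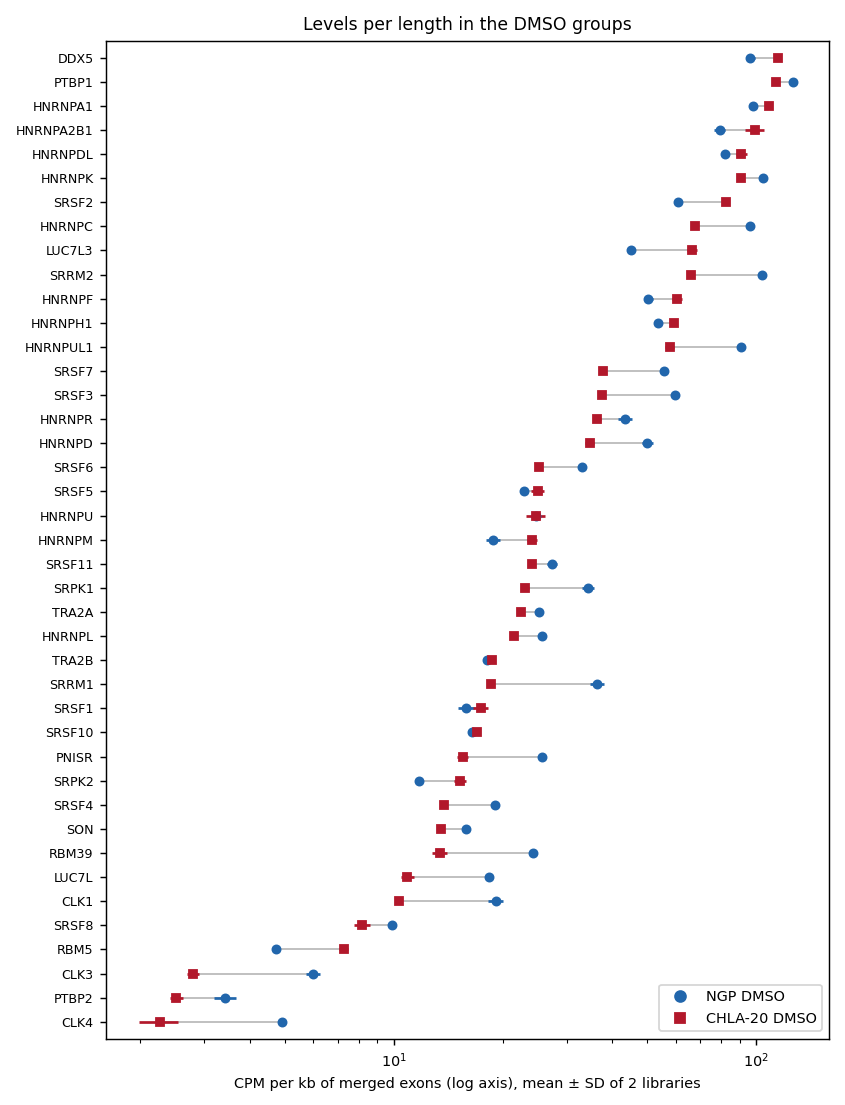
CPM per kilobase of merged exons (log axis) of 41 members in NGP DMSO (blue circles) and CHLA-20 DMSO (red squares), mean ± SD of 2 libraries, ordered by the CHLA-20 level. CLK4, CLK3 and CLK1 lie to the right in NGP, whereas RBM5 lies to the left.

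Members were also described by their annotation in GENCODE 29. A transcript marked for nonsense-mediated decay was annotated in 39 of 42 members (92.9%) and in 41.5% of the 13953 protein-coding genes tested. A retained-intron transcript was annotated in 33 members (78.6%) and 55.4% of those genes, and both kinds in 33 members (78.6%) and 31.5%. Members had a median of 15 transcripts, against 7. Counted per transcript, decay transcripts were 14.3% of those of members and 10.2% of those of the protein-coding genes tested. Retained-intron transcripts were 28.1% and 19.0%. RBM39 had 15 decay transcripts and 16 with a retained intron among 45, and HNRNPH1 had 4 and 16 among 50. Exons of 21 members shared no base with another gene, and SRSF1, SRSF2, HNRNPU and RBM5 shared over 10%. Leaving out these 4 and the 18 members with pseudogenes named after them left 22 tested members. Of these, 3 were higher and 8 lower in NGP, against 16.8% and 19.4% of all genes tested. In CHLA-20, 14 were higher and 6 lower, against 16.9% and 22.4% of all genes tested. The subset was chosen after the values were seen.

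Related genes outside the 42 were counted as a comparison. Over all genes tested, 16.8% were higher and 19.4% lower in NGP, and 16.9% were higher and 22.4% lower in CHLA-20. Of 39 other SR-like and hnRNP genes tested, 9 were higher and 14 lower in NGP (median log2 change -0.04), and 16 were higher and 7 lower in CHLA-20 (0.07). CCNL1, a cyclin partner of the CDK11 kinases, was lower in NGP, at -0.71 ± 0.04, and higher in CHLA-20, at 0.13 ± 0.04, the CHLA-20 call being lost without CHLA-20 JSK591 replicate 2 (0.11) and with the GC trend removed (0.087). Its paralogue CCNL2 rose by 0.47 ± 0.04 in NGP and 0.38 ± 0.04 in CHLA-20. BCLAF1 was lower in NGP, at -0.14 ± 0.04, and higher in CHLA-20, at 0.56 ± 0.04. SREK1 rose by 0.41 ± 0.05 in CHLA-20 and did not pass in NGP, at -0.08 ± 0.05. HNRNPLL was lower in both lines, at -0.43 ± 0.05 in NGP and -0.28 ± 0.05 in CHLA-20, as were PTBP3, at -0.36 ± 0.04 in NGP and -0.32 ± 0.05 in CHLA-20, and SRRM3, at -0.25 ± 0.05 in NGP and -0.38 ± 0.05 in CHLA-20. HNRNPUL2 rose by 0.34 ± 0.06 in NGP, where RBM25 was lower, at -0.40 ± 0.04.

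Of 10 genes for other splicing kinases and a phosphatase regulator, 2 were higher and 3 lower in NGP, and 3 were higher and 1 was lower in CHLA-20. PRPF4B, a spliceosome-activating kinase, was at 0.03 ± 0.04 in NGP, without passing, and rose by 0.57 ± 0.04 in CHLA-20. DYRK2 was lower in both lines, at -0.14 ± 0.04 in NGP and -0.39 ± 0.04 in CHLA-20. CDK12 rose by 0.20 ± 0.04 in CHLA-20, and CDK13 by 0.13 ± 0.05 in NGP and 0.14 ± 0.05 in CHLA-20. The NGP call of CDK13 was lost without 4 libraries, 1 at a time, at 0.07 to 0.11, under DESeq2 (0.11) and with no count filter (0.13), and its CHLA-20 call without 3 libraries, at 0.12 to 0.14. In NGP, DYRK1B was higher, at 0.25 ± 0.07, a call lost without NGP DMSO replicate 1 (0.13) or NGP JSK591 replicate 2 (0.20). There PPP1R8 was lower, at -0.26 ± 0.05, as was DYRK1A, at -0.15 ± 0.05, a call lost without NGP DMSO replicate 1 (-0.14) or NGP JSK591 replicate 2 (-0.12), with total-count scaling (-0.12) and with no count filter (-0.15).

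Of 29 tissue-biased splicing regulators tested, 8 were higher and 9 lower in each line (27.6% and 31.0%). Over all genes tested these shares were 16.8% and 19.4% in NGP, and 16.9% and 22.4% in CHLA-20. MBNL3, of the muscleblind family, rose by 0.42 ± 0.06 in NGP and 0.99 ± 0.06 in CHLA-20, while MBNL2 was lower, at -0.36 ± 0.05 in NGP and -0.42 ± 0.05 in CHLA-20. MBNL1 was lower in NGP, at -0.39 ± 0.06, and at 0.03 ± 0.06 in CHLA-20 without passing. RBM6 was lower at -0.35 ± 0.05 in NGP and -0.58 ± 0.04 in CHLA-20, and RBM20 at -0.21 ± 0.04 in NGP and -0.44 ± 0.07 in CHLA-20. RBM24 had 812 and 880 counts in NGP JSK591 libraries, against 1072 and 996 in NGP DMSO libraries, and 11 and 7 counts in CHLA-20 JSK591 libraries, against 21 and 21 in CHLA-20 DMSO libraries. Its call in CHLA-20, at -1.23 ± 0.39, was lost without CHLA-20 JSK591 replicate 2 (-0.96). CELF2 rose by 0.35 ± 0.05 in CHLA-20, and TIA1 by 0.27 ± 0.04 in NGP and 0.32 ± 0.04 in CHLA-20. In NGP, RBFOX3, a neuronal splicing factor, was higher, at 0.39 ± 0.05, as was RBM38, at 0.36 ± 0.06. KHDRBS3 was lower in NGP, at -0.37 ± 0.06, and higher in CHLA-20, at 0.22 ± 0.06, the CHLA-20 call being lost without CHLA-20 DMSO replicate 1 (0.13).

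Of 14 factors of nonsense-mediated decay, the pathway that removes poison transcripts, 1 was higher and 7 lower in NGP (median log2 change -0.09), and 4 were higher and 2 lower in CHLA-20 (0.03). UPF2 was lower in NGP, at -0.69 ± 0.05, and at 0.02 ± 0.06 in CHLA-20 without passing, a difference of -0.70 ± 0.08 (adjusted p = 3.9e-11). SMG9 was lower in both lines, at -0.75 ± 0.06 in NGP and -0.44 ± 0.06 in CHLA-20. RBM8A of the exon junction complex rose by 0.47 ± 0.04 in CHLA-20, and by 0.14 ± 0.04 in NGP, where the call was lost without any 1 NGP library (0.11 to 0.13) and under DESeq2 (0.12). EIF4A3 rose by 0.22 ± 0.04 and MAGOH by 0.29 ± 0.07 in CHLA-20, while CASC3 of the same complex was lower there, at -0.37 ± 0.04.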

How the data were processed

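Messenger RNA of NGP and CHLA-20 cells treated for 6 days with JSK591 or DMSO was sequenced by DNBseq, 2 libraries in each of 4 groups. The deposited files hold unnormalized counts for each gene, which the authors made, per the submitters' processing notes, with STAR and HTSeq on GRCh38 (hg38), DESeq2 also being named. Versions, annotation and strand setting are not given in the sources used here. Reads outside genes were 5.15% to 6.86% of all reads counted, ambiguous ones 6.77% to 7.18% and multiply aligned ones 19.2% to 22.0%, and these stayed out of the tests.

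All 58721 identifiers were matched to GENCODE 29 (GRCh38) for symbols, coordinates and exon lengths. Counts were fitted with edgeR 4.0.16 (R 4.3.3, limma 3.58.1), using filterByExpr, TMM scaling and the quasi-likelihood test with 4 groups over all 8 libraries, no block and 4 residual degrees of freedom, with a biological coefficient of variation of 2.76%. P-values were Benjamini-Hochberg adjusted over 19395 genes, with a threshold of 0.05. Errors of log2 changes are SE, and the SE of a log2 change was derived from the F value of the test. DESeq2 1.42.0, 2 other scalings, 2 other count filters, fits within a line, a GC correction, 2 replicate blocks and leaving out each library were alternatives. Replicates differed by more than counting noise (chi-square per degree of freedom 2.05 to 3.11). At this depth 3 counts, the limit that a count of 0 allows, are at most 0.0904 CPM, and this covers counting error only. Tables were prepared with Python 3.11.15 and pandas 2.3.3.

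The members and lists were chosen with earlier results of these data known. All members were named. Values in every library were given for the 8 members per line with the largest change in each direction among those passing, the 4 in each direction between lines, and those with opposite signs. Of each related list, the 3 passing genes with the largest change per line and direction were named, apart from genes not reported here. MATR3 of the related list matched 2 identifiers and was left out. Protein sequences were not analysed here.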

Additional observations from a re-analysis of the deposited data

Results flagged for a closer look

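The effect of JSK591 differed between the lines, by the test of the difference itself, in 31 of 41 members, and these are set down as values. The log2 difference, NGP effect minus CHLA-20 effect, was -0.70 for SRSF3, -0.63 for SRSF1, -0.61 for SRSF6, -0.53 for SRSF8, -0.52 for SRSF7, -0.27 for SRSF2, -0.22 for SRSF11, -0.14 for SRSF10 and 0.45 for SRSF5 among SR proteins. It was -0.62 for TRA2A and -0.36 for TRA2B. Among the kinases it was -0.44 for CLK1, -0.30 for CLK4 and 0.19 for SRPK2. For hnRNP genes it was -0.67 for HNRNPM, -0.38 for HNRNPDL, -0.26 for HNRNPF, -0.25 for HNRNPU, -0.25 for HNRNPK, -0.19 for HNRNPA1, -0.19 for HNRNPD, -0.18 for HNRNPR and -0.16 for HNRNPA2B1. For the PTB genes it was -0.36 for PTBP2 and -0.14 for PTBP1. For the remaining genes it was -0.55 for RBM39, -0.35 for SON, -0.18 for SRRM1, -0.14 for DDX5, 0.16 for PNISR and 0.46 for LUC7L3. SRSF3, TRA2A, HNRNPK and RBM39 passed in both lines with opposite signs.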

How the results depend on the processing

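Under every one of 17 alternatives, 27 of the 34 members called in CHLA-20 and 22 of 25 in NGP were called. Under every one of the 16 that apply across lines, 22 of 31 were called for the difference of the effects and 33 of 38 between the DMSO groups. The members higher ranged from 7 to 10 in NGP and 21 to 27 in CHLA-20, and those lower from 15 to 19 in NGP and 6 to 10 in CHLA-20. Negative differences numbered 22 to 30, and positive ones were 2 in place of 4 under DESeq2 and with no filter on counts. Leaving out 1 library at a time, positive differences numbered 2 to 4, members lower in both lines 5 to 8 (5 without CHLA-20 DMSO replicate 1) and members of opposite sign 4 to 7 (7 without NGP JSK591 replicate 1). Each such fit has 1 library fewer. The cause of these shifts was not tested. Libraries sharing a replicate number had correlations of -0.02 to 0.01 between their deviations from the group means, so the numbers were not taken as a pairing. With a replicate block over all libraries the counts were 8 higher and 17 lower in NGP and 25 higher and 9 lower in CHLA-20, as without it, and a block within each line gave 11 in place of 13 members lower in NGP DMSO than in CHLA-20 DMSO, SRSF1 (-0.06) and SRSF5 (-0.10) losing their calls. Some values that had not passed did so under an alternative. With the GC trend removed these included SRSF8 (0.12) and HNRNPF (-0.094) in NGP and RBM5 (-0.14) in CHLA-20. Between the DMSO groups that held for SRSF10 (-0.17) and TRA2B (-0.15). Under DESeq2 HNRNPA1 passed in CHLA-20 (0.079), as did the differences of HNRNPC (-0.12) and HNRNPH1 (-0.12). The RBM5 difference passed with size-factor scaling (-0.19), and DDX5 in NGP with total-count scaling (0.085). Among the members, signs turned under these alternatives only for values that had not passed. With size-factor scaling, and equally under DESeq2, PTBP1 was at 0.0070 in CHLA-20 and HNRNPC at -0.0013 in NGP. With the GC trend removed, HNRNPUL1 was at 0.024 in CHLA-20, PTBP1 at 0.11 in CHLA-20 (adjusted p = 0.00211), LUC7L3 at -0.032 in CHLA-20, SRSF7 at 0.013 in NGP, TRA2B at 0.0044 in NGP, SRPK1 at 0.014 for the difference, SRRM2 at -0.083 for the difference and HNRNPU at -0.14 between the DMSO groups (adjusted p = 0.000224). With a minimum of 10 counts per library, PTBP1 was at 0.0081 in CHLA-20 and SRSF7 at 0.0081 in NGP. With no filter, PTBP1 was at 0.0048 in CHLA-20. Fitted within its line, PTBP1 was at 0.022 in CHLA-20. With total-count scaling, PTBP1 was at 0.013 in CHLA-20, SRSF7 at 0.018 in NGP, TRA2B at 0.0088 in NGP and PNISR at 0.0030 in NGP. Without 1 library at a time, the values ranged, with a change of sign, over HNRNPUL1 -0.057 to 0.025 in CHLA-20, PTBP1 -0.016 to 0.028 in CHLA-20, LUC7L3 -0.014 to 0.073 in CHLA-20, SRSF6 -0.0068 to 0.020 in NGP, SRSF11 -0.030 to 0.023 in NGP and HNRNPC -0.025 to 0.015 in NGP. They also ranged over HNRNPD -0.016 to 0.058 in NGP, PTBP2 -0.11 to 0.020 in NGP, SRRM2 -0.054 to 0.059 for the difference, SRSF10 -0.062 to 0.014 between the DMSO groups, TRA2B -0.056 to 0.00081 between the DMSO groups and HNRNPU -0.064 to 0.075 between the DMSO groups.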
